A study of Rattus norvegicus with 3 samples.

Results

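Seh1 peaks of rat oligodendrocyte progenitor cells (OPC) that lay in LTR retrotransposons numbered 708 of 9084 annotated OPC peaks. A peak was taken as an LTR peak where the authors' annotation, made with HOMER on rat build rn6, gave LTR as the class of the repeat at the peak. For 1 of the 708 that class carried a question mark. Most LTR peaks belonged to the families ERVL-MaLR, with 292 peaks, and ERVK, with 270, and 6 of the 708 overlapped a peak of the later stage.

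Chromatin immunoprecipitation with sequencing was done with an antibody to Seh1 in immature oligodendrocytes (iOL) and in OPC, and with IgG in iOL. The iOL were differentiated for 1 day with 60 nM of the thyroid hormone T3, with PDGF-AA, bFGF and NT3 taken out of the medium. The OPC were kept in medium with PDGF-AA, CNTF, bFGF and NT3. All 3 libraries came from primary cultures of forebrain cells of Sprague Dawley rats at postnatal day 1 to 2, and the labels name no mutation or transgene in any of them. Each group had 1 library, so no comparison has a replicate check and no test was made. The intervals given beside shares and medians are exact 95% binomial intervals, and they cover counting error only. Beside a count of 0, the limit given is instead 3 counts of the total. The IgG library's values were not analysed here.

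LTR retrotransposons are copies of retroviruses and of related elements that entered the germ line of an ancestor. A full copy has an internal part that encodes viral proteins, between a pair of long terminal repeats (LTRs) that hold the promoter and enhancer of the element. Recombination between the LTRs leaves a solitary LTR, which is the form of most copies in mammalian genomes. Cells keep many copies silent with DNA methylation and with methylation of histone H3, and some LTRs act as promoters or enhancers of host genes. Seh1 is a protein of the nuclear pore complex, in its Y-shaped scaffold.

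Of iOL, 6704 peaks were deposited, each 209 bp wide, and of OPC 9117, each 205 bp wide. The annotation is recorded under the iOL library, yet all 9084 of its intervals equal OPC intervals and 0 equal iOL intervals. It therefore describes OPC peaks, 33 OPC peaks have no annotation, and LTR peaks of iOL were not counted here. The table's header names Seh1 in OPC together with IgG in iOL. No source used here states how many reads a library had, and the depth behind each peak is unknown. How reads that fit several copies of a repeat were treated is not given in the sources used here, and its part in the results below was not tested. The share of the genome in each family was not measured, so no count below shows a preference of Seh1 for a family.

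LTR peaks made up 7.79% of the annotated OPC peaks (7.25 to 8.36%). The other large retrotransposon classes, long (LINE) and short (SINE) interspersed elements, held 902 peaks (9.93%) and 509 peaks (5.60%). The annotation gives a repeat label only to peaks in introns or between genes, and of these 7828 peaks 9.04% were LTR peaks (8.42 to 9.70%). The LTR share was 5.53% of the 2674 intron peaks and 10.9% of the 5154 peaks between genes, and these intervals did not overlap (4.70 to 6.47% and 10.0 to 11.7%). By the same rule no LTR peak could fall in the promoter, exon or UTR classes.

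ERVL-MaLR elements are old, non-autonomous relatives of ERVL, and the MT and ORR1 groups of rodents belong to them. They held 292 of the 708 peaks, or 41.2% (37.6 to 45.0%). ERVK elements, related to betaretroviruses, held 270 peaks, or 38.1% (34.5 to 41.8%), and their interval overlapped that of ERVL-MaLR. Among LTR peaks with a score at or above the median of all annotated peaks the order turned, with 35.9% in ERVL-MaLR and 40.9% in ERVK. ERV1 elements, related to gammaretroviruses, held 94 peaks (13.3%, 10.9 to 16%). ERVL elements, distant relatives of spumaviruses, held 49 peaks (6.92%, 5.16 to 9.05%). The remaining 3 peaks had no family or a doubtful one.

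The 708 peaks were spread over 191 subfamilies, of which 86 held 1 peak each. The 18 subfamilies with 10 or more peaks held 283 peaks. MTD, an ERVL-MaLR repeat, held the most with 43 peaks, followed by the ERVK repeat RMER13B with 31. MTC held 24 peaks and ORR1B1 held 23, both ERVL-MaLR, and RMER19B of ERVK held 17. MTEa and RNLTR4a held 14 each, and ORR1F and RNLTR4b 12 each. MTB_Rn, MTE2b and ORR1A_Rn held 11 each, while MLTR14, ORR1D2, ORR1E, RMER13A, RNLTR8B and RNNICER2-int held 10 each. By the start of the name, the MT group (MTA to MTE) held 135 peaks (19.1%), RMER 130 (18.4%), ORR1 119 (16.8%), RNLTR and RNERV together 107 (15.1%), RLTR 76 (10.7%) and MLT1 38 (5.37%). Intracisternal A particles, an ERVK group that is still mobile in mice, were named at 9 peaks, 8 of RNIAP1a and 1 of RNIAP1b.

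**Figure D1:**
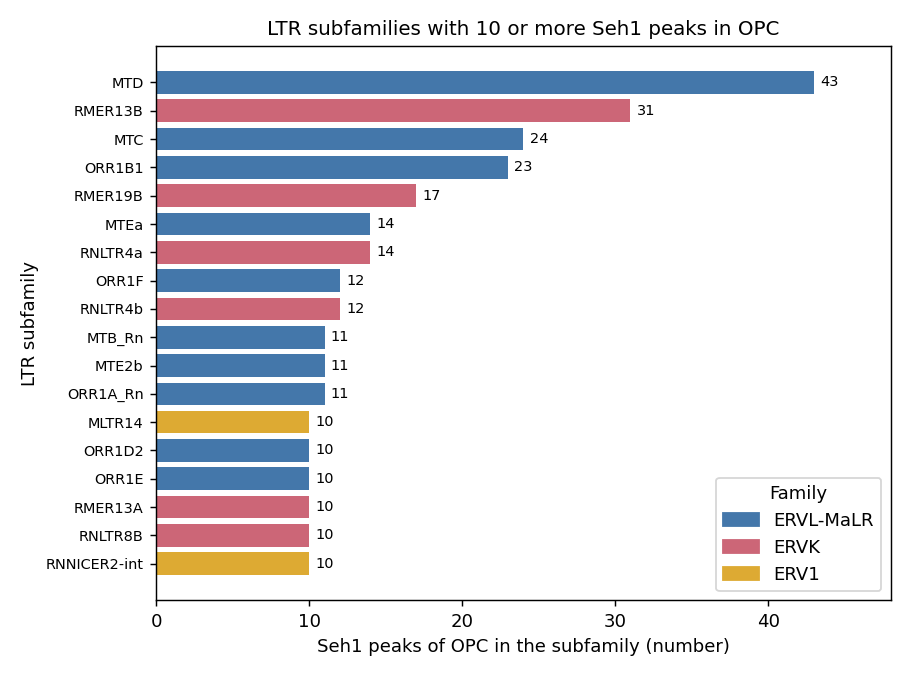
Number of Seh1 peaks of OPC in each LTR subfamily that held 10 or more of them, with bars starting at 0 and coloured by family. MTD leads with 43 peaks, and RMER13B with 31 is the highest ERVK subfamily.

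The label of a repeat names its LTR part or, where it ends in -int, _I or -I, its internal part. By this rule internal parts held 105 of the 708 peaks (14.8%, 12.3 to 17.7%). This share was 45.7% of the 94 ERV1 peaks (35.4 to 56.3%), 13.0% of the 270 ERVK peaks (9.20 to 17.6%), 8.56% of the 292 ERVL-MaLR peaks (5.62 to 12.4%) and 2 of the 49 ERVL peaks. Another 2 ERVK peaks, whose names have -I ahead of a suffix, were counted with the LTR parts. Only the ERV1 interval stood apart from those of all 3 other families. Subfamilies whose names contain NICER held 31 peaks, and 10 of these were in RNNICER2-int.

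Subfamily names with a rat mark (RN, Rn, Rattus or Rat) were counted apart from the others. This split was chosen after the values had been seen. Such names held 229 peaks (32.3%, 28.9 to 35.9%). They made up 70.2% of ERV1 peaks (59.9 to 79.2%), 51.1% of ERVK peaks (45.0 to 57.2%), 8.22% of ERVL-MaLR peaks (5.34 to 11.98%) and 1 of the 49 ERVL peaks.

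The caller's score of a peak has no unit in the deposited table. LTR peaks had 11 distinct scores, which stood on whole multiples of 0.639 within 0.0401, running over 8 to 18 steps. Their lowest score was 5.11, their median 7.02, their quartiles 7.02 and 7.66, and their highest 11.5, with a mean of 7.40 ± 0.972 (SD over 708 peaks of 1 library). The median was 7.66 for LINE peaks, 7.02 for SINE peaks and 7.66 for all annotated OPC peaks. The medians of LTR peaks and of all annotated peaks were thus 1 step apart, at 11 and 12 steps.

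The highest score of an LTR peak was thus 11.5, and 1.96% of annotated OPC peaks, or 178 peaks, scored above it. The highest score was 14.7 for LINE peaks, 13.4 for SINE peaks and 197.3 for all annotated peaks. Of the 501 annotated peaks with a score of 10 or more, 13 were LTR peaks (2.59%, 1.39 to 4.40%), against 73 in LINE repeats (14.6%) and 7 in SINE repeats (1.40%).

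Among intron and intergenic peaks the LTR share was lower at higher scores. It was 10.7% below a score of 7 (163 of 1529 peaks), 9.27% at scores of 7 to 8 and 8.74% at 8 to 9. At scores of 9 to 10 it was 7.17%, and at 10 or more it was 3.10% (13 of 419 peaks, 1.66 to 5.25%). The interval at 10 or more lay below those of the bins under 9. LINE repeats held 11.7% below a score of 7, 9.86% at 7 to 8 and 13.1% at 8 to 9. Their share was higher at 9 to 10, with 19.2%, and at 10 or more, with 17.4%. SINE repeats, like LTR repeats, held less at high scores. They had 7.19% below a score of 7, 7.60% at 7 to 8, 4.76% at 8 to 9, 1.89% at 9 to 10 and 1.67% at 10 or more. The median score was 7.02 for ERVL-MaLR, 7.02 for ERVK, 7.34 for ERV1 and 7.66 for ERVL, so the families were within 1 step of each other.

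**Figure D2:**
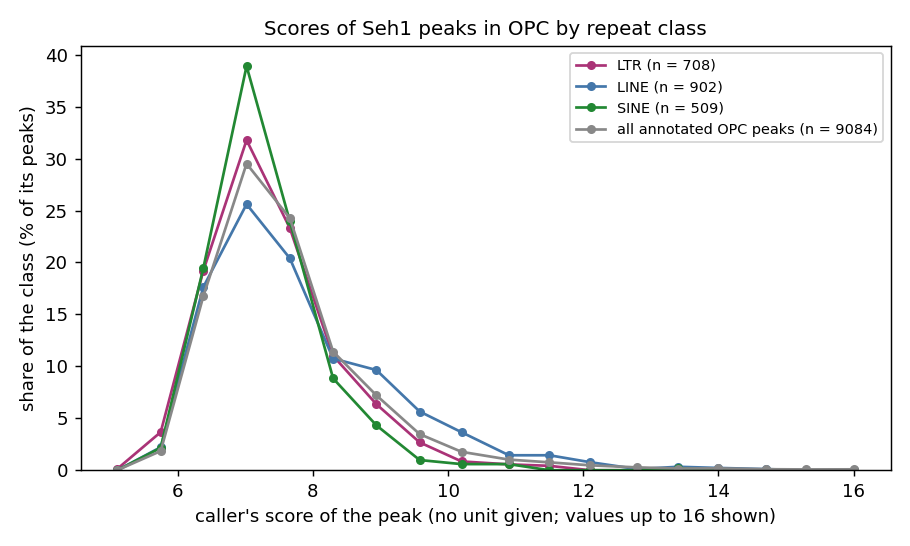
Share of the peaks of each class (y axis, %) at each value of the caller's score (x axis, no unit, values up to 16 shown) for LTR, LINE, SINE and all annotated OPC peaks. The LTR line peaks at a score of 7.02 and ends at 11.5.

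The 10 LTR peaks with the highest scores were 4 of ERVK, 4 of ERV1 and 2 of ERVL-MaLR. A score of 11.5 was reached by 3 of them. One was an ORR1F repeat in intron 2 of 10 of Phyhd1, a dioxygenase gene, at chr3:8838394-8838598. Another was RLTR26_Rattus in intron 6 of 17 of Slc28a2, a nucleoside transporter gene, at chr3:114488313-114488517. RNNICER2-int at chr16:66331548-66331752 lay between genes, at -716 kb from the transcription start site (TSS) of Unc5d, a netrin receptor gene.

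A score of 10.9 was reached by 4 more. NICER2_Rn lay 83.4 kb downstream of the TSS of Srek1, which encodes a splicing regulator. RLTR20B1 lay 2509 kb downstream of the TSS of the homeobox gene Shox2. MTE2a was in intron 2 of 7 of Mcu, the pore gene of the mitochondrial calcium uniporter, and the TSS nearest to it was that of Oit3, at -38.6 kb. RNERV19-int at -10007 bp from Tspy1 was the only LTR peak on chromosome Y, which had 3 annotated peaks. A score of 10.2 was reached by 6, of which the first 3 by position were RNNICER3-int at 78.5 kb from F8a1, RMER4B at -20.2 kb from the phosphate transporter gene Slc20a1, and RLTR20C at -2.93 kb from the dystrobrevin gene Dtnb. Tied with them were RNLTR4b near Bmp4, ORR1D1 in intron 1 of 7 of Cd38, and MTE2a in intron 2 of 2 of Chst11, which encodes an enzyme of chondroitin sulfate synthesis. No iOL peak overlapped any of the first 10. Their gaps to the nearest iOL peak ran over 8.64 to 2828 kb.

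In HOMER the focus ratio is the fraction of reads found on the fitting side of the peak centre. Its median was 0.786 for LTR peaks (0.786 to 0.800), 0.750 for LINE peaks, 0.800 for SINE peaks and 0.778 for all annotated OPC peaks. Within LTR peaks it was 0.737 in internal parts (0.722 to 0.765) and 0.800 in LTR parts (0.786 to 0.800), with intervals that did not overlap. The same order held within ERVK, with 0.722 in internal parts (0.700 to 0.750) and 0.786 in LTR parts (0.778 to 0.800). Within ERV1 it was 0.722 in internal parts (0.700 to 0.737) and 0.786 in LTR parts (0.733 to 0.812), with intervals that overlapped. In ERVL-MaLR both parts had 0.800, and in ERVL the 2 internal parts had 0.862 and the LTR parts 0.812. Names with a rat mark had 0.762 (0.737 to 0.778) and the other names 0.800 (0.800 to 0.812). Within ERVK, ERV1 and ERVL-MaLR, taken singly, the intervals with and without the mark overlapped.

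The comparison of stages asked which OPC peaks in LTR repeats had a counterpart after 1 day of T3. An overlap of 1 bp or more with an iOL peak was found for 6 of the 708 LTR peaks, or 0.847% (0.312 to 1.84%), beside 1.73% of all annotated OPC peaks (157 of 9084, 1.47 to 2.02%). The intervals of LTR peaks and of all annotated peaks overlapped. LINE peaks had 20 overlaps in 902 (2.22%, 1.36 to 3.40%). SINE peaks had 0 in 509, which allows a share of up to 0.589%. Since no LTR peak scored above 11.5, the annotated peaks up to that score were also counted, and 108 of 8906 overlapped (1.21%). That limit was chosen after the values had been seen. By family the 6 were 3 of ERVK, 2 of ERVL-MaLR and 1 of ERV1, while ERVL had 0 in 49, which allows up to 6.12%.

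The 6 shared peaks were in 6 subfamilies on 5 chromosomes. RMER17A_Rn-I, the internal part of an ERVK element at chr7:19672314-19672518, had the highest score of them, 9.58, and overlapped an iOL peak by 158 bp. It lay at -583 kb from Vom2r57, a vomeronasal receptor gene. RMER13A at chr1:138905333-138905537 overlapped by 88 bp and lay 1357 kb from the TSS of Ntrk3, which encodes the receptor of NT3. RNLTR10A2 of ERV1 at chr3:173421426-173421630 overlapped by 176 bp, at -377 kb from Phactr3. The peak with the longest overlap, 198 bp, was MTC in intron 1 of 5 of Enoph1, an enzyme gene of methionine salvage, at chr14:11185205-11185409.

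The other two were on chromosome X, which held 10 LTR peaks in all. RMER13B at chrX:14779872-14780076 overlapped by 178 bp and lay 3.82 kb from the TSS of Fthl17b, a gene of the ferritin heavy chain family. MTC-int at chrX:135846240-135846444 overlapped by 179 bp, at 295 kb from Rbmx2. MTC-int had a score of 7.02, and the 4 peaks between it and RMER17A_Rn-I in this list had 7.66 each. Only the Enoph1 peak lay in an intron.

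An iOL peak that did not overlap lay within 10 kb of 33 LTR peaks (4.66%, 3.23 to 6.48%), beside 8.55% of all annotated OPC peaks, and this interval lay below that value. The share was 4.32% for LINE peaks and 8.06% for SINE peaks. By family it was 6.51% for ERVL-MaLR, 6.38% for ERV1, 2.59% for ERVK and 2.04% for ERVL. The closest was RNLTR10-int in intron 1 of 22 at Ppp6r3, a regulatory subunit gene of protein phosphatase 6, with a gap of 0.032 kb. RMER15 near Ndufv2, a subunit gene of mitochondrial complex I, had a gap of 0.515 kb. RNLTR4d_I near Edn3 had 0.584 kb and RNNICER2-int near Wnt5a 0.769 kb. These 4 were named after their values had been seen.

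Of the 708 LTR peaks, 148 lay in an intron (20.9%, 18.0 to 24.1%), beside 29.4% of all annotated OPC peaks. Of intron and intergenic peaks, the only ones that can carry a repeat label, 34.2% lay in an intron. The share was 18.5% for LINE peaks and 38.9% for SINE peaks. The other 560 LTR peaks were between genes. Of the 148, 42 were in the first intron (28.4%, 21.3 to 36.4%), beside 31.1% of all 2674 intron peaks. The last intron held 12. The host transcript was matched to a gene for 139 peaks, in 131 genes, and for 37 the nearest TSS was that of another gene than the host.

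By family, introns held 29.8% of ERVL-MaLR peaks (24.6 to 35.4%). This interval held the share of all annotated peaks (29.4%) and that of intron and intergenic peaks (34.2%). They held 14.8% of ERVK peaks (10.8 to 19.6%), 10.6% of ERV1 peaks (5.22 to 18.7%) and 20.4% of ERVL peaks (10.2 to 34.3%). The ERVL-MaLR interval lay above those of ERVK and ERV1. The subfamilies ranged from 7 of 12 ORR1F peaks, 4 of 10 MLTR14 peaks and 17 of 43 MTD peaks to 0 of 17 RMER19B peaks, which allows up to 17.6%, and 0 of 10 RNNICER2-int peaks. Internal parts were in introns in 10.5% and LTR parts in 22.7%. Camta1, a transcription factor gene, held 3 LTR peaks, of MTEa, MTC and ORR1A3. Btbd9, Gnal, Kcnip1, Slc39a11, St6galnac3 and Ttc39c held 2 each. These genes were named after their counts had been seen.

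The median distance of LTR peaks to the nearest TSS was 58.8 kb (51.4 to 73.9 kb), with quartiles of 20.2 and 190.2 kb. It was 147.2 kb for LINE peaks, 30.2 kb for SINE peaks and 34.8 kb for all annotated OPC peaks. Between genes alone, LTR peaks had a median of 76.2 kb (58.8 to 91.6 kb) and all annotated peaks 64.9 kb, a value within the LTR interval. In introns alone, LTR peaks had a median of 36.1 kb (29.9 to 44.6 kb) and all intron peaks 24.4 kb, a value below the LTR interval. Within 10 kb of a TSS lay 10.6% of LTR peaks (8.42 to 13.1%), beside 25.4% of all annotated OPC peaks and 17.9% of intron and intergenic peaks. Between genes alone it was 9.64% of LTR peaks (7.33 to 12.4%) and 11.6% of all annotated peaks, a value within the LTR interval. At 100 kb or more lay 39.3% of LTR peaks (35.6 to 43.0%), beside 26.6% of all annotated OPC peaks, 60.0% of LINE peaks and 17.3% of SINE peaks. Peaks at promoters, exons and UTRs, which carry no repeat label, are in the values over all annotated peaks.

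Among intron and intergenic peaks the LTR share was 3.84% within 5 kb of a TSS (30 of 782 peaks, 2.60 to 5.43%). It was 7.26% at 5 to 10 kb, 9.84% at 10 to 20 kb, 8.91% at 20 to 50 kb and 7.88% at 50 to 100 kb. Farther out it was 10.5% at 100 to 200 kb, 10.9% at 200 to 500 kb, 13.3% at 500 to 1000 kb and 19.8% at 1000 kb or more (33 of 167 peaks, 14.0 to 26.6%). The LTR share was thus highest in the farthest bin, and its interval there lay above those of the bins under 500 kb. LINE repeats held 2.69% in the nearest bin and 41.9% in the farthest, and SINE repeats 6.52% in the nearest and 2.40% in the farthest.

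**Figure D3:**
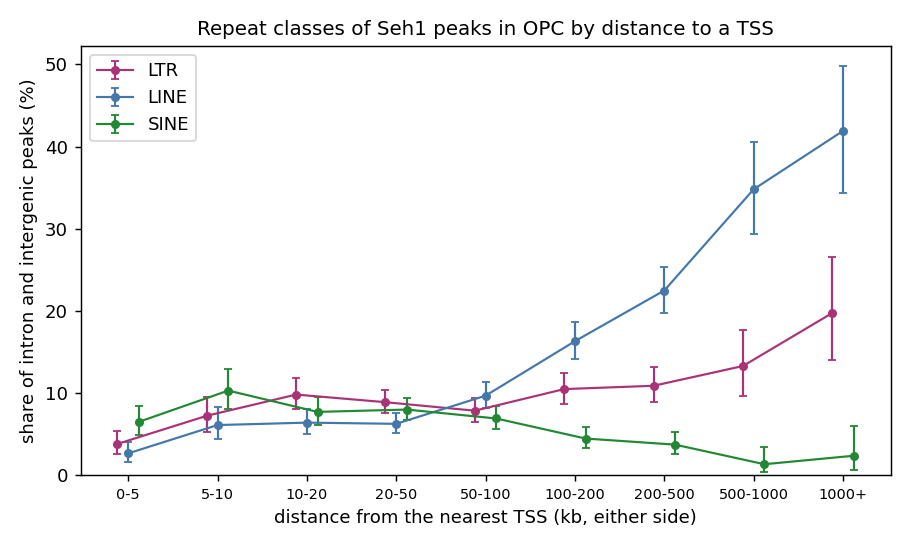
Share of intron and intergenic OPC peaks in LTR, LINE and SINE repeats (y axis, %) by distance from the nearest TSS (x axis, kb, either side), with exact 95% binomial intervals as error bars. LTR peaks made up 3.84% of peaks within 5 kb and 19.8% at 1000 kb or more.

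Among LTR peaks, ERVL-MaLR held a higher share than ERVK in each bin under 500 kb and a lower one farther out. Of the 30 LTR peaks within 5 kb of a TSS, 53.3% were ERVL-MaLR (34.3 to 71.7%) and 26.7% ERVK (12.3 to 45.9%). In the bins from 5 to 500 kb, ERVL-MaLR held 36.5 to 46.3% and ERVK 25.5 to 40.9%, with no steady change. At 500 to 1000 kb, 25.6% of 39 were ERVL-MaLR and 64.1% ERVK (25 peaks, 47.2 to 78.8%). At 1000 kb or more, 21.2% of 33 were ERVL-MaLR and 63.6% ERVK (21 peaks, 45.1 to 79.6%). The ERVL-MaLR interval within 5 kb overlapped those of the bins at 500 kb or more. The ERVK interval within 5 kb overlapped that at 1000 kb or more. The median distance was 83.9 kb for ERVK (58.6 to 106 kb), 58.4 kb for ERV1, 51.1 kb for ERVL-MaLR (39.1 to 64.8 kb) and 34.1 kb for ERVL. The intervals of ERVK and ERVL-MaLR overlapped.

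The 229 peaks with a rat mark in the name had a median of 108 kb (87.6 to 142 kb), and the other 479 LTR peaks 46.9 kb (39.1 to 52.7 kb). Within ERVK the median was 139 kb for the 138 peaks with a rat mark (101 to 193 kb) and 47.4 kb for the other 132 (33.0 to 60.6 kb). Between genes alone, ERVK peaks had 158 kb with the mark (102 to 262 kb) and 51.8 kb without it (35.0 to 86.2 kb). In ERV1 the median was 82.2 kb with the mark and 45.4 kb without it, and in ERVL-MaLR 93.1 kb with it and 48.4 kb without it, with intervals that overlapped in both families. Introns held 11.4% of peaks with a rat mark (7.55 to 16.2%) and 25.5% of the others (21.6 to 29.6%). Within ERVK the intron share was 11.6% with the mark and 18.2% without it, and within ERV1 6.06% and 21.4%. Within ERVL-MaLR it was 20.8% and 30.6%, and the intervals overlapped in each of these families. The focus ratio moved with the same split, as given above, and its part in the difference was not tested.

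**Figure D4:**
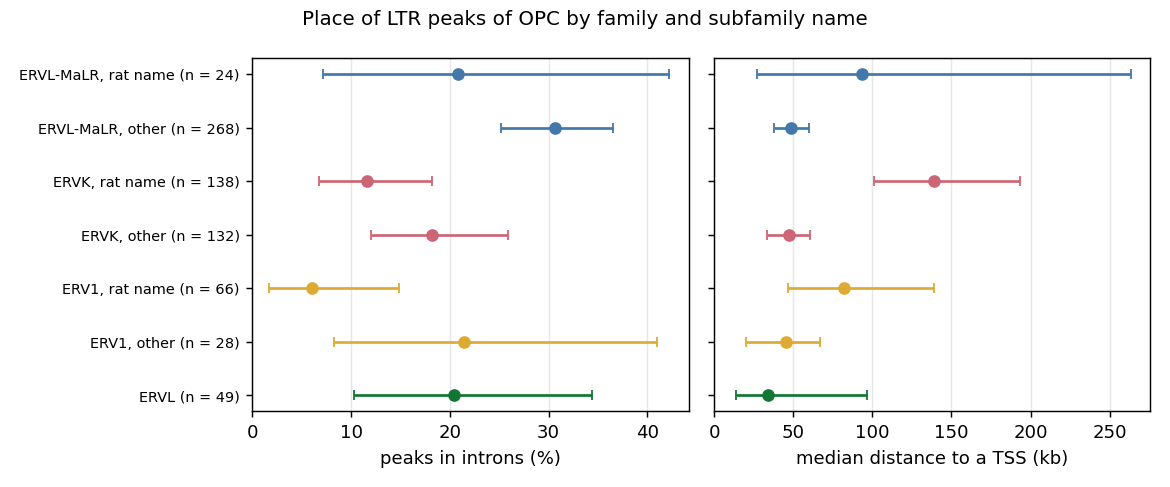
Share of LTR peaks in introns (left, %) and median distance to the nearest TSS (right, kb) by family and by whether the subfamily name carries a rat mark, with 95% intervals as bars. ERVK peaks with a rat mark had a median of 139 kb and the other ERVK peaks 47.4 kb.

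LTR peaks lay downstream of their nearest TSS in 46.8% of cases (43.0 to 50.5%), and all annotated OPC peaks in 57.6%. Between genes alone the shares were 38.2% of LTR peaks (34.2 to 42.4%) and 40.3% of all annotated peaks.

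The 10 LTR peaks nearest to a TSS lay at most 2436 bp from it, and 9 of them were upstream. The annotation's promoter class, which carries no repeat label, ran over -998 to 617 bp. Between genes, annotated peaks began at 1.001 kb from a TSS, so nearer upstream positions were closed to LTR peaks. Exon and UTR positions were closed to them too. An MTD repeat at chr1:216291949-216292153 was the nearest, at -1036 bp from Kcnq1, a potassium channel gene. MTE2b lay at -1337 bp from Parvb, a gene of focal adhesions, and MT2B1 of ERVL at -1375 bp from Marcksl1. RMER19B lay at -1391 bp from Zbtb3, and an ORR1F repeat at -1492 bp from each of Mtarc1 and Ly86. The others were RMER4A at -1759 bp from Exosc4, a subunit gene of the RNA exosome, MLT1F at -1760 bp from Asgr1 and MTB_Rn at -2144 bp from Rtf1. The last, RLTR18B, lay in the first of 20 introns of Fam227a, 2436 bp downstream of its TSS. Their scores ran over 6.38 to 8.94, the highest at Exosc4, and none of them overlapped an iOL peak. In columns of the authors' table with wider promoter windows, 23 LTR peaks were called promoter peaks (3.25%, at -4780 to -1036 bp) in both of the narrower windows, and 29 (4.10%) in the widest, against 16.8% of all annotated OPC peaks in the widest. That 16.8% holds peaks of the promoter, exon and UTR classes, which carry no repeat label, so part of this gap was fixed by the annotation.

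Another OPC peak lay within 10 kb of 61 LTR peaks (8.62%, 6.65 to 10.9%), beside 11.7% of all annotated OPC peaks, 3.55% of LINE peaks and 13.4% of SINE peaks. That 11.7% includes promoter, exon and UTR peaks, which carry no repeat label. Between genes alone the shares were 8.04% of LTR peaks (5.92 to 10.6%) and 9.82% of all annotated peaks. In introns alone they were 10.8% (6.31 to 17.0%) and 13.2%. In each of these places the value over all annotated peaks lay within the LTR interval. Over introns and intergenic positions together, the share by family was 11.3% for ERVL-MaLR, 6.67% for ERVK, 6.38% for ERV1 and 8.16% for ERVL. Names with a rat mark had 4.37% and the other names 10.6%. Within ERVK these shares were 3.62% and 9.85%, and within ERV1 3.03% and 14.3%. Within ERVL-MaLR they were 12.5% and 11.2%, and the intervals overlapped in each of these families. Only 8 LTR peaks had another LTR peak within 10 kb, and they made 4 pairs, each of different subfamilies. RLTR20D and RLTR21 lay 3721 bp apart near Btd, ORR1E and RMER3D1A_LTR 7025 bp apart near Tmem260, ORR1E and MTD 7794 bp apart in the first intron of Gnal, and MLT1A0 and ORR1A_Rn 8750 bp apart near Ndufv3. These pairs were named after their count had been seen.

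LTR peaks were found on all of the 20 autosomes and on both sex chromosomes. Their share of annotated peaks ran from 5.41% on chromosome 10 (35 of 647 peaks, 3.80 to 7.44%) to 11.98% on chromosome 11 (29 of 242, 8.17 to 16.8%) among the autosomes. These were the only ones of 21 chromosomes, Y aside, whose interval left out the overall share of 7.79%. On chromosome 10, 21 of the 35 peaks were ERVL-MaLR and 3 were ERVK. On chromosome X the LTR share was 7.87% (10 of 127 peaks, 3.84 to 14.0%), while LINE repeats held 38.6% and SINE repeats 0 of its 127 peaks. At scores at or above the median of all annotated peaks, the LTR share on X was 1.19%. This value rests on fewer than these 10 LTR peaks, and its counting error was not computed.

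**Figure D5:**
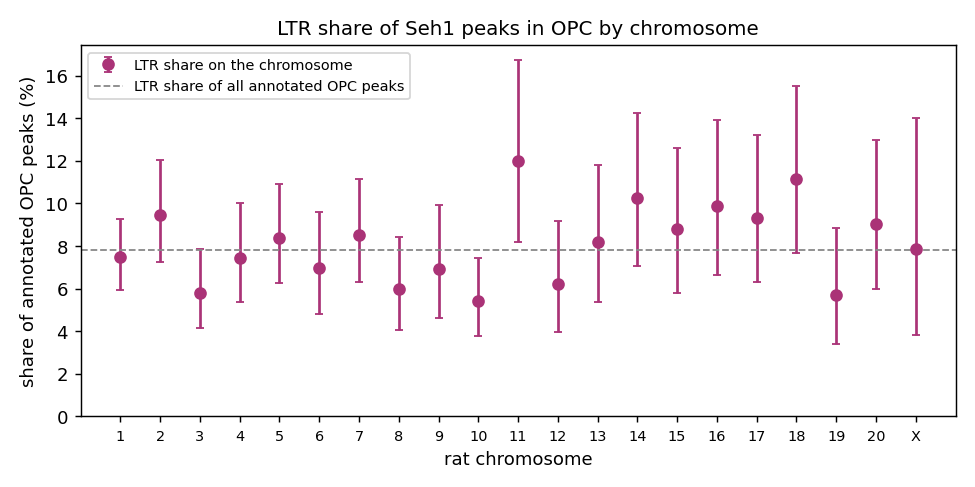
LTR share of annotated OPC peaks (y axis, %) on each rat chromosome except Y, with exact 95% binomial intervals as bars and the share over all annotated OPC peaks as a dashed line. Chromosome 10 lies below the line at 5.41% and chromosome 11 above it at 11.98%, and the other intervals cross it.

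The 708 LTR peaks had 662 nearest genes. Of these, 34 genes had 2 LTR peaks, 6 genes had 3 and none had 4 or more. The 6 genes, named after their counts had been seen, were Basp1, Bmp4, C2h4orf33, Copb1, Tbx3 and Vom2r57. Bmp4 encodes a ligand that holds back oligodendrocyte differentiation, and its 3 peaks were all ERVK copies with a rat mark, far upstream. RNLTR4b lay at -516 kb with a score of 10.2, and copies of RNIAP1a lay at -956 and -1386 kb with 6.38 each. The T-box gene Tbx3 had RMER17C at 54.5 kb, RMER19B at -119 kb and ORR1D2 at -258 kb.

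Of 20950 named coding genes, 2.99% (626) were the nearest gene of an LTR peak and 26.7% that of any annotated OPC peak. Of 32 genes of oligodendrocyte progenitors and inhibitors of differentiation, 0 had an LTR peak and 19 had any peak. Of 33 myelin and mature oligodendrocyte genes, 2 had an LTR peak (6.06%) and 18 any peak. The 2 were Bmp4, which stood in this list although it encodes an inhibitor of differentiation, and Fa2h, a gene that makes 2-hydroxylated lipids of myelin, with ORR1D2 at -12.1 kb and a score of 6.38. Of 29 nucleoporin genes, which encode the nuclear pore, 0 had an LTR peak and 14 any peak. No limit was computed for the counts of 0 in the progenitor and nucleoporin lists. At the 2.99% of all named coding genes, lists of this size would hold few genes with an LTR peak.

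Of 46 Wnt, Notch and BMP pathway genes, 7 had an LTR peak (15.2%, beside 2.99% of all named coding genes). Any annotated OPC peak was found for 30 of them (65.2%, beside 26.7%), so the list was rich in peaks of any kind. Among ligands these were Bmp4, described above, and Wnt5a, with RNNICER2-int at 118 kb. Among Wnt regulators, Axin2 had ORR1D1 at 58.8 kb and Apc had MTD at -154 kb, and both encode parts of the complex that degrades beta-catenin. Lef1, a transcription factor of the Wnt pathway, had MLTR11B at -47.1 kb with a score of 8.94. Hey2, a Notch target, had RNLTR3a-int at -58.7 kb, and Smad6, an inhibitor of BMP signalling, had MTC at 125 kb. Of these 7, none overlapped an iOL peak, and the nearest iOL peak was 0.769 kb away at Wnt5a.

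Of 28 long neuronal adhesion and synaptic genes, 6 had an LTR peak (21.4%) and 16 any peak (57.1%). Over all named coding genes these shares were 2.99% and 26.7%. Lsamp, an adhesion gene, had LTR33A_ in intron 1 of 6. Opcml had RNLTR19B at -350.1 kb, Dpp10 had RMER17B_Rn at 822 kb and Ntm had MTD at -414 kb. Of 27 genes known to silence endogenous retroviruses, 1 had an LTR peak (3.70%, beside 2.99% of all named coding genes) and 8 any peak. It was Morc3, whose nearest LTR peak, RNLTR19B, lay in intron 24 of 37 of the neighbouring gene Dop1b at -57.5 kb. Of 1461 olfactory and vomeronasal receptor genes, 16 had an LTR peak (1.10%) and 126 any peak. The lengths of the genes and of their flanks were not taken into account in these counts.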

How the data were processed

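Peak positions and scores are those the authors deposited for 1 Seh1 library per stage. Bowtie2 and HOMER, with builds rn6 and hg18, are named in the submitters' processing notes, and per the file headers the annotation was made with HOMER's annotatePeaks.pl on rn6. The deposited score per peak, focus ratio (a fraction) and distance to the TSS were used as given. A second class column of the same name differed in 5363 rows and was not used. LTR peaks were matched by gene ID to a RefSeq gene table of GRCr8 for names alone (701 of 708). Overlaps, gaps, exact Clopper-Pearson intervals and order-statistic intervals of medians were computed with Python 3.11.15, pandas 2.3.3, numpy 2.4.6 and scipy 1.17.1, and figures with matplotlib 3.10.9. The functions were tested on simulated data. Named were the 10 LTR peaks with the highest scores, the 10 nearest to a TSS, all that overlap an iOL peak, subfamilies with 10 or more peaks, genes with 4 or more and up to 8 members per gene list. Members, lists and this rule were chosen with earlier results of these data known. Alternatives varied the score minimum, the overlap, the distance limits, the denominator and doubtful labels. Some members of the gene lists are not reported here.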

Additional observations from a re-analysis of the deposited data

How the results depend on the processing

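Of 55 values of 24 results under other settings, 37 lay within the interval of the main value (or within 1.5 times a count) and 18 did not. The counting error of the values under other settings was not computed, so leaving that interval does not show a difference beyond counting error. With a score at or above the median of all annotated peaks, the LTR share was 6.79%, the ERVL-MaLR share of LTR peaks 35.9%, below the ERVK share of 40.9%, the intron share 36.5% of ERVL-MaLR and 4.26% of ERV1 peaks, the LTR share on chromosome X 1.19%, the subfamilies with 10 or more peaks 3 and the MTD peaks 22. Counts, such as those of subfamilies and of MTD peaks, fall of themselves where peaks are left out. Over intron and intergenic peaks the LTR share was 9.04%. Between genes alone the median distance was 76.2 kb and the downstream share 38.2%. With limits of 5 and 50 kb, an iOL peak lay near 2.40% and 26.6% of LTR peaks, another OPC peak near 3.25% and 34.7%, and another LTR peak near 2 and 27. Within 50 kb of a TSS, 315 genes were nearest to an LTR peak. The widest promoter window gave 4.10%, chosen after seeing the data. The share that overlapped an iOL peak stayed at 0.706 to 1.56%. No paired analysis was possible because each group has 1 library and no test was made. Read depth is unknown, and a peak not listed in iOL is not shown to be absent there.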
